A study of Mus musculus with 2 samples.

Results

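Type 1 alveolar epithelial (AT1) cells were described in 2 single-cell RNA libraries of mouse lung, Cherry_Positive and Cherry_Negative. Lungs were taken 7 days after intravenous injection of labelling 4T1 cells, a mouse mammary carcinoma line that, in the published labelling system, releases a cell-penetrating mCherry protein taken up by neighbouring cells. Both libraries held CD45- lung cells collected by flow cytometry, and there was 1 library per group. The labels give neither strain, sex, age nor number of mice, and although the series title concerns radiation exposure they do not say whether these lungs were irradiated. A cell was taken as AT1 when its unique molecular identifiers (UMIs, counts of captured RNA molecules) of Ager, Hopx, Rtkn2, Aqp5 and Akap5 summed to at least 5. The sum over the surfactant genes Sftpb, Slc34a2, Napsa and Lamp3 had to stay below 20, and the sum over the endothelial and mesenchymal genes Pecam1, Cdh5, Col1a2 and Col3a1 at 2 or less. This gave 91 cells of 4581, of which 7 came from Cherry_Positive and 84 from Cherry_Negative.

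AT1 cells are the thin, wide cells that line most of the gas-exchange surface of the alveolus. They lie against capillary endothelium, share a basement membrane with it, and send it growth factors. In the mouse they are renewed after injury mainly from type 2 (AT2) cells, the cuboidal makers of surfactant, through a keratin-rich transitional state. Their flattened shape is held by the actin cytoskeleton and by the stretch-sensed coactivators YAP and TAZ. They also take up sodium and water from the airspace and are rich in caveolae, the flask-shaped pits of the plasma membrane. Because of their large and fragile cell bodies, AT1 cells are commonly lost when lung is dissociated.

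The libraries held 10094853 UMIs over 1826 barcodes in Cherry_Positive and 11632459 UMIs over 2861 barcodes in Cherry_Negative, of which 1770 and 2811 cells passed the filters. The libraries shared 13 barcode sequences, 0 of them among the AT1 cells. AT1 cells made up 0.395% of kept Cherry_Positive cells (7 of 1770, exact 95% interval 0.159 to 0.813%) and 2.99% of kept Cherry_Negative cells (84 of 2811, 2.39 to 3.69%). These shares follow the sort as well as the tissue, and fewer surviving cells and fewer cells in the lung cannot be told apart. All intervals here are exact and cover counting error only; with 1 library per group no difference has a replicate check and no test was made.

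Not all of the 91 cells carried the expression pattern of AT1 cells. Of the 6 marker genes fixed for this cell type (the 5 in the sum and Clic5), 60 cells had UMIs of at least 4, namely 37 cells with all 6, 18 with 5 and 5 with 4. The other 31 cells, 4 in Cherry_Positive and 27 in Cherry_Negative, had 1 to 3 markers and AT1 sums of 5 to 22 with a median of 6. Hopx made up 73.8% of their AT1 sums, over the 5 genes of the rule, and in 24 of the 31 the whole sum was Hopx. Among the 6 markers, 16 of the 31 cells held Hopx alone; Hopx is also transcribed outside the alveolar epithelium. A UMI of Ager, the receptor for advanced glycation end products and the most widely used AT1 marker, was present in 5 of the 31. Endothelial genes were the highest other marker list in 18 of these cells, club cell genes in 5, ciliated in 4, AT2 in 3 and mesenchymal in 1. One Cherry_Negative cell among them held 50484 UMIs, with 1021 of Lgals1, 327 of Vim, 141 of S100a4 and 36 of Krt18. The data therefore go against the AT1 name for these 31 cells, and the name AT1 is used below for the 60 cells with at least 4 markers, a limit set after the data were seen. Among those 60, some Cherry_Negative cells also carried many UMIs of another type. One held 698 UMIs of club markers and 136 of AT2 markers beside an AT1 sum of 67, and another 141 of AT2 markers beside an AT1 sum of 22. Others held 96 UMIs of mesenchymal markers and 23 of endothelial markers. Values without the 5 cells that had 20 or more UMIs of any such list are given for some results only. The limit of 20 was not scaled to the depth of a cell. Among the 5 is a cell of 6419 UMIs with 22 of AT2 markers, beside an AT1 sum of 323 and a surfactant sum of 0. The later wording on cells with markers of another type includes it. Shifts of further list counts are given in the closing part on how the results depend on the processing.

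The 60 AT1 cells were 3 in Cherry_Positive, 0.169% of kept cells (0.0350 to 0.495%), and 57 in Cherry_Negative, 2.03% of kept cells (1.54 to 2.62%). The 3 Cherry_Positive cells had AT1 sums of 245, 321 and 352 and held 4653, 6032 and 6941 UMIs. The 57 Cherry_Negative cells had a median AT1 sum of 148 and a median of 3296 UMIs, between 1513 and 8536. Their sums began at 22, far above the limit of 5, and no surfactant sum was over 17. In 51 of the 60 cells the endothelial and mesenchymal sum was 0. At the limits of the rule, 14 members had an AT1 sum of exactly 5, and 1 Cherry_Positive and 10 Cherry_Negative cells missed it with a sum of 4. The surfactant limit kept out 18 Cherry_Positive and 396 Cherry_Negative cells with an AT1 sum of at least 5, and the highest AT1 sum among those Cherry_Negative cells was 139, beside 21 surfactant UMIs. The endothelial and mesenchymal limit kept out 53 Cherry_Positive and 215 Cherry_Negative cells, of which 3 and 6 had an AT1 sum of at least 20 and 4 markers, as many Cherry_Positive cells as were kept with 4 markers.

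**Figure D1:**
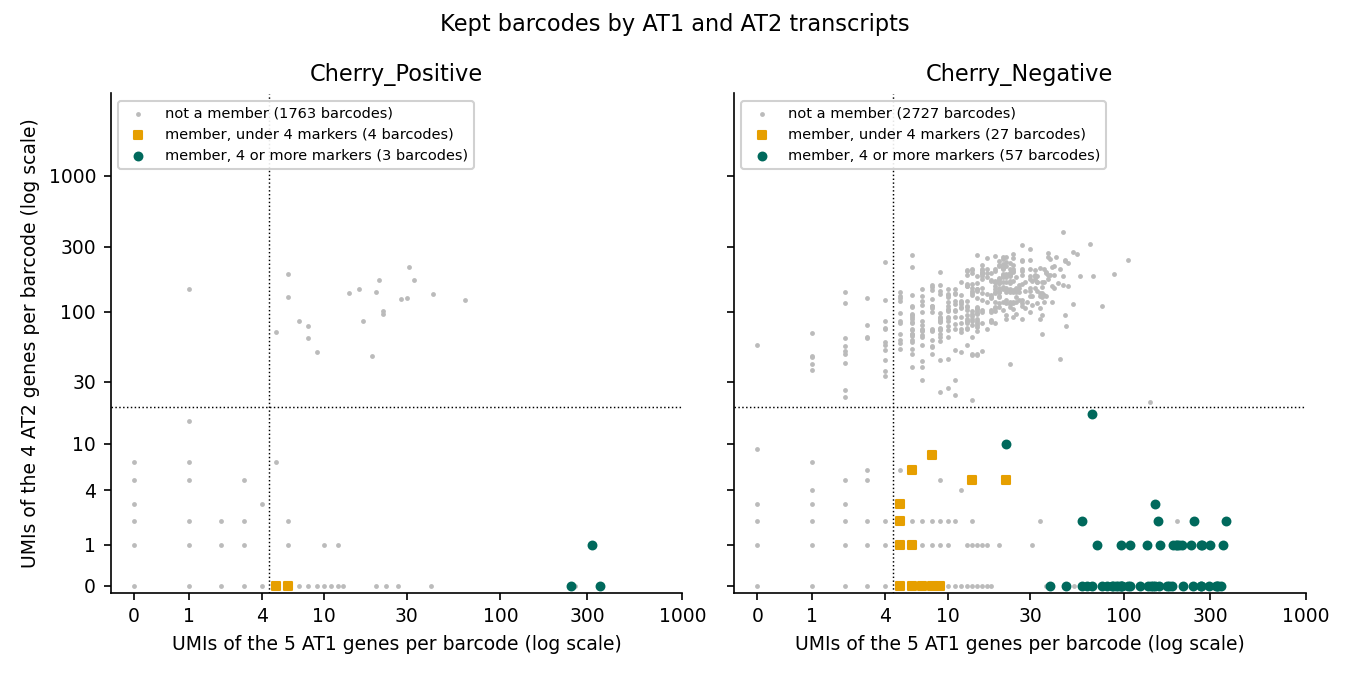
Summed UMIs of the 5 AT1 genes (x axis) against summed UMIs of the 4 surfactant genes (y axis) in each cell, Cherry_Positive left and Cherry_Negative right, with dotted lines at the limits of the rule, 5 and 20. The 3 Cherry_Positive AT1 cells have AT1 sums of 245 to 352, and the members with fewer than 4 markers lie at AT1 sums of 22 or less.

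The AT1 cells were set beside 426 Cherry_Negative AT2 cells, taken by a surfactant sum of at least 20 with no limit on AT1 genes (AT2-rule cells in the plots). The AT2 class first laid down also required an AT1 sum below 5; it held 30 cells and its RNA included a summed 81707 CPM of club cell genes (CPM, UMIs of a gene per 1000000 UMIs of its class), so the wider class, chosen after the data were seen, is given first and the narrower where it differs. They were also set beside 278 Cherry_Negative capillary endothelial cells with Car4 and Ednrb, which face AT1 cells in the tissue. A gene is called higher or lower when its CPM differed at least 2-fold and the 95% interval of the ratio did not reach 1. The AT1 cells had been chosen on part of this expression, so the differences between classes are descriptions. Of 10043 genes with at least 10 UMIs, 2666 (26.5%) were called higher and 411 (4.09%) lower in AT1 than in AT2 cells, and the median log2 ratio of all genes was 0.85. AT2 cells spend much of their RNA on surfactant genes. Trimmed-mean scaling lowered every log2 ratio by 0.98 and gave 885 genes (8.81%) higher and 1326 (13.2%) lower. Against Car4 capillary cells 1030 of 8197 genes (12.6%) were called higher and 1215 (14.8%) lower, with a median log2 ratio of -0.03, and scaling moved these by 0.13.

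Ager, Hopx and Akap5 were used to choose the cells, so their values follow in part from that choice and are descriptions. Ager (chr17:34597862-34600936, plus strand, mm10) had UMIs in all 57 Cherry_Negative AT1 cells, at a lowest level of 4989, a median of 32395 and a highest of 48155 CPM. The 3 Cherry_Positive cells had 29823, 33985 and 33527 CPM and lay inside that range. Hopx, a homeodomain-only protein, was likewise present in all 57, between 249 and 16080 CPM. Akap5, an anchoring protein for protein kinase A, had UMIs in 41 of the 57 cells and was the least often seen of the marker genes.

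Of 35 AT1 genes that the rule did not use, all 35 were measured, 34 were called higher and 0 lower than in AT2 cells, with a median log2 ratio of 5.03 beside 0.85 for all genes. The list was chosen with earlier results of these data known, and the cells were chosen by other AT1 genes. A high count was therefore likely beforehand, and it is a description and no check on the cell name. Their summed level was 40838 CPM in AT1 cells against 2820 CPM in AT2 cells. Against Car4 capillary cells 31 of 35 were called higher and 1 lower, with a median log2 ratio of 6.44. With all 84 Cherry_Negative members and the narrower AT2 class the count was also 34 of 35, with a median of 4.30; in that comparison 1728 of 5826 genes (29.7%) were called higher and 268 (4.6%) lower. Pdpn (podoplanin, a mucin-like surface protein; chr4:143267431-143299564, minus strand) had UMIs in 50 of the 57 cells, with a lowest level of 0, a median of 1099 and a highest of 4506 CPM. Its class level was 1258 CPM (1110 to 1420) in AT1 against 9.98 CPM in AT2 cells, a 126-fold difference (88.3 to 185). When every cell was thinned to 1000 UMIs, 64.9% of AT1 cells kept a Pdpn UMI, against 1.64% of AT2 and 0.36% of Car4 capillary cells. The order of the classes was thus the same at equal depth.

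Igfbp2 (chr1:72824503-72852474, plus strand), a secreted binder of insulin-like growth factors that is described in mature AT1 cells of the mouse, stood at 1219 CPM in AT1 against 4.28 CPM in AT2 cells, 285-fold apart (170 to 517). Against all other kept Cherry_Negative cells, where 1386 of 13261 genes (10.5%) were called higher and 1070 (8.07%) lower, Igfbp2 was 460-fold higher (at the lower bound 314-fold). It was uneven among AT1 cells, with UMIs in 39 of 57, a median of 703 and a highest level of 7042 CPM. Spock2, a testican proteoglycan, was 306-fold higher (167 to 622) than in AT2 cells and had UMIs in 52 of 57 cells. Krt7, a simple-epithelium keratin, had 2862 CPM in AT1 against 111.5 CPM in AT2 cells (25.7-fold, 22.6 to 29.2). Cyp2b10 (chr7:25897620-25926624, plus strand), a cytochrome P450, had 222 UMIs in the 57 AT1 cells and 0 in the 278 Car4 capillary cells, at least 279-fold higher when the capillary class is set to 3 UMIs. Emp2, a membrane protein used as an AT1 marker that these capillary cells share, separated the pair of classes much less, with 2732 CPM in AT1, 243 CPM in AT2 and 1092 CPM in Car4 capillary cells.

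**Figure D2:**
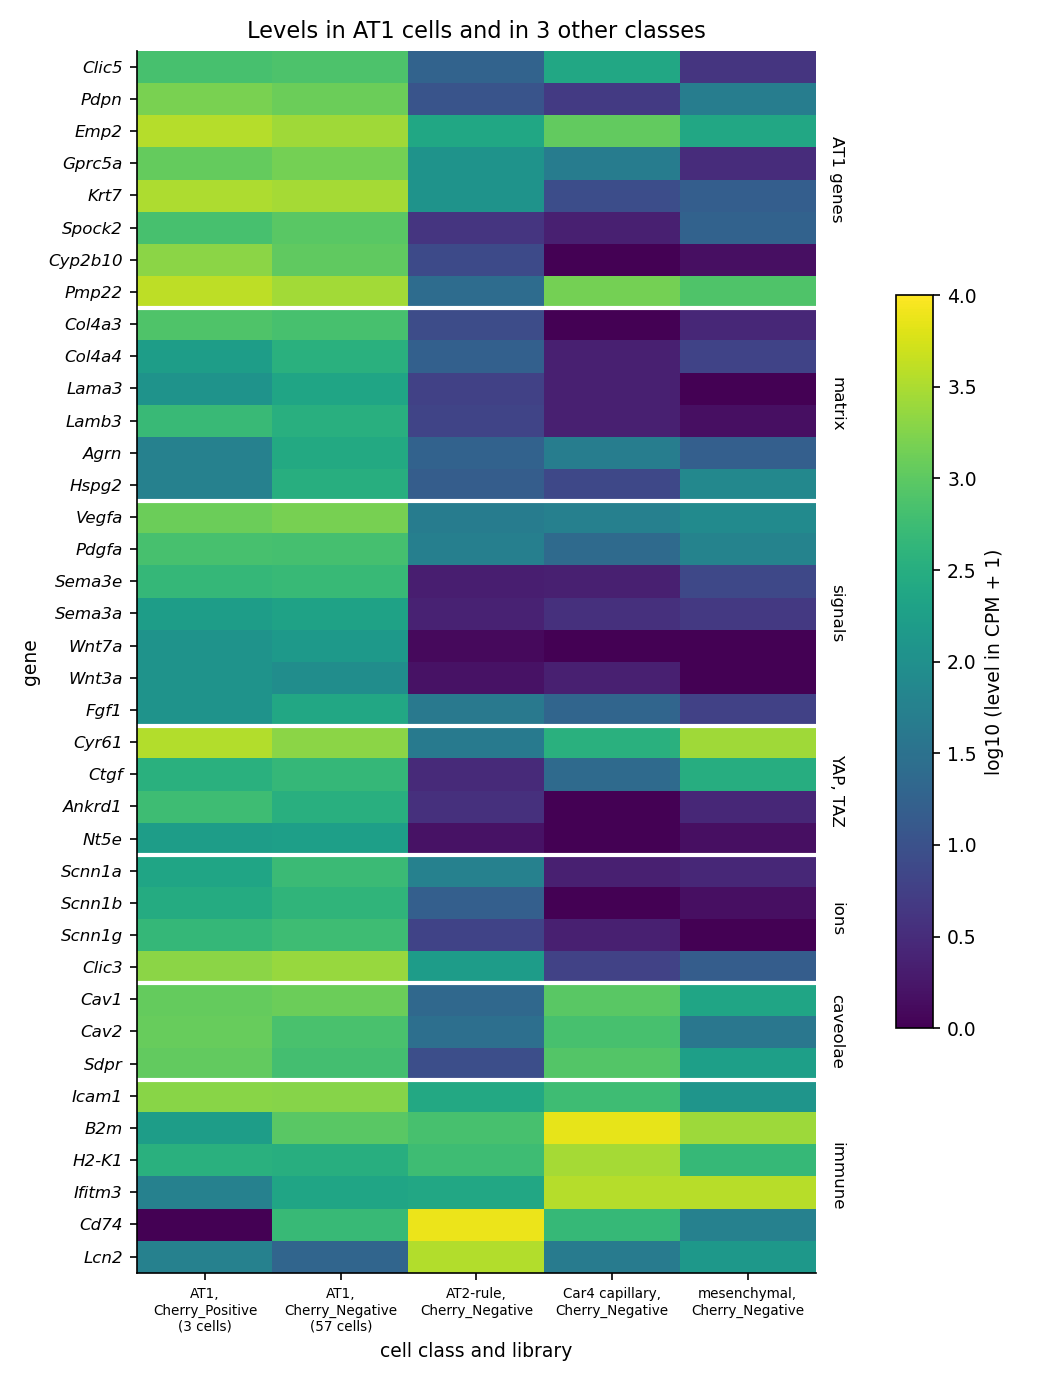
Levels of 38 genes as log10(CPM + 1), colour scale, in AT1 cells of both libraries and in the classes they were compared with. AT1, matrix, signal and sodium channel genes are brighter in both AT1 columns than in AT2-rule cells, the caveolar rows are bright in AT1 and Car4 capillary cells, and Cd74 is brightest in AT2-rule cells at 7565 CPM, against 492 CPM in Cherry_Negative AT1 cells.

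Most measured genes of the basement membrane stood higher in AT1 than in AT2 cells. Of 29 genes of the basement membrane and its receptors, 24 were measured against AT2 cells, 21 were called higher and 0 lower, with a median log2 ratio of 2.74 and a summed level of 7474 CPM in AT1 against 1042 CPM in AT2 cells. Col4a3 (chr1:82586921-82722059, plus strand), the alpha 3 chain of type IV collagen, had UMIs in 44 of 57 cells with a median of 673 and a highest level of 3297 CPM. It stood at 694 CPM in AT1 against 7.42 CPM in AT2 cells (93.6-fold, 61.3 to 148) and had 0 UMIs in Car4 capillary cells. Col4a4 lies beside it on the opposite strand (chr1:82448423-82586849) and was 21.7-fold higher in AT1 than in AT2 cells. The laminin chains Lama3 and Lamb3, which help anchor epithelium, were called higher, with Lama3 at 226 against 4.85 CPM and Lamb3 at 332 against 5.70 CPM. Agrn and Hspg2, the heparan sulphate proteoglycans agrin and perlecan, were 15.8-fold and 23.1-fold higher. Sparc, a collagen-binding matricellular protein, had 5609 CPM in AT1 against 300 CPM in AT2 cells. Timp2 and Timp3, inhibitors of matrix metalloproteinases, had 1219 against 39.4 CPM and 1026 against 55.3 CPM. Itgb6, whose integrin frees latent TGF-beta, had 212 CPM in AT1 against 5.99 CPM in AT2 cells. Against Car4 capillary cells 14 of 23 measured genes were called higher and 1 lower.

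Caveolar genes set AT1 apart from AT2 cells but not from the capillary cells across the membrane. Of 8 measured of 10, 7 were called higher and 0 lower than in AT2 cells, with a median log2 ratio of 3.49, and 0 of 7 passed in either direction against Car4 capillary cells, or 2 of 7 higher without the 5 cells with markers of another type. Cav1, the coat protein of caveolae, had UMIs in 53 of 57 AT1 cells and stood at 1282 CPM, against 21.1 CPM in AT2 cells and 950 CPM in Car4 capillary cells. Sdpr, a cavin, had 631 CPM in AT1, 8.27 CPM in AT2 and 858 CPM in Car4 capillary cells. The ratios over Car4 capillary cells were 1.35 for Cav1, 1.04 for Cav2 and 0.736 for Sdpr.

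Junction genes moved less as a group, with 12 of 27 measured called higher and 1 lower than in AT2 cells and a median log2 ratio of 1.15, which was 0.17 after scaling. Cldn18, the main claudin of alveolar epithelium, had 1879 CPM in AT1 against 463 CPM in AT2 cells. Cldn3, a sealing claudin, went the other way with 159 against 701 CPM. Pkp2, a desmosomal plakophilin, was 16.9-fold higher in AT1 cells, and Cdh1, E-cadherin, was not called at 202 against 140 CPM.

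Among 21 measured of 25 genes of ion and water transport, 8 were called higher and 4 lower than in AT2 cells; the median log2 ratio was 0.90 and turned to -0.08 after scaling. The 3 subunits of the epithelial sodium channel, which draws fluid out of the airspace, were all among the higher ones. Scnn1a had 535 against 56.2 CPM, Scnn1b (chr7:121865038-121918514, plus strand) 410 against 15.4 CPM, and Scnn1g (chr7:121734479-121768475, plus strand) 569 against 5.42 CPM. Scnn1g was 105-fold higher (64.3 to 180) and had UMIs in 36 of 57 AT1 cells. Atp1b1, a beta subunit of the sodium pump, went the other way with 198 CPM in AT1 against 615 CPM in AT2 cells. Cftr, the chloride channel, had 0 UMIs in AT1 cells against 48.8 CPM in AT2 cells. Aqp1, a water channel, had 33.7 CPM in AT1 against 737 CPM in Car4 capillary cells.

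Genes for signals to neighbouring cells were split. Of 43 listed genes 32 were measured against AT2 cells, 16 were called higher and 5 lower, with a median log2 ratio of 2.13 that was 1.14 after scaling. Against Car4 capillary cells 13 of 26 were called higher and 8 lower. Vegfa (chr17:46016993-46032369, minus strand), the growth factor for endothelium, had UMIs in 52 of 57 AT1 cells, with a lowest level of 0, a median of 1376 and a highest of 9162 CPM. Its class level was 1532 CPM (1369 to 1710) in AT1, against 46.8 CPM in AT2 and 53.7 CPM in Car4 capillary cells, ratios of 32.8 (27.0 to 39.8) and 28.5 (20.6 to 40.4). Its receptor gene Kdr lay on the other side, at 4.82 CPM in AT1 and 735 CPM in Car4 capillary cells. After thinning, 64.9% of AT1 cells kept a Vegfa UMI, against 5.16% of AT2 and 3.96% of Car4 capillary cells.

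Semaphorins of class 3, secreted guidance proteins, differed from member to member. Sema3e (chr5:14025276-14256689, plus strand), whose receptor is endothelial plexin D1, had UMIs in 42 of 57 AT1 cells and stood at 492 CPM (401 to 597) against 1.14 CPM in AT2 cells, a ratio of 431 (163 to 1611). Sema3a had 198 against 1.43 CPM and Sema3b 332 against 14 CPM. Sema3c, in contrast, had 4.82 CPM in AT1 against 703 CPM in Car4 capillary cells. Of the Wnt ligands, Wnt7a (chr6:91363981-91411363, minus strand) had 30 UMIs in 26 AT1 cells, 145 CPM, against 1 UMI in AT2 and 0 in Car4 capillary cells, and Wnt3a had UMIs in 15 AT1 cells at 91.6 CPM. Pdgfa, which acts on alveolar myofibroblasts, had 660 against 52.8 CPM in AT2 cells. Tgfb2, Hbegf, Fgf1 and Efna1 were also called higher than in AT2 cells, with ratios of 169, 8.36, 6.23 and 8.21. The 5 lower genes were Jag1, Areg, Csf2 and Gdf15 with 0 UMIs in AT1 cells, and the alarmin Il33 with 9.64 against 180 CPM. Csf2, the growth factor of alveolar macrophages, had 33.4 CPM in AT2 cells.

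Targets of YAP and TAZ made up a further group that stood high, with 13 of 20 measured of 25 called higher and 0 lower than in AT2 cells and a median log2 ratio of 1.96 that was 0.98 after scaling. Their summed level was 4308 CPM in AT1, against 367 CPM in AT2 and 886 CPM in Car4 capillary cells, where 12 of 19 were called higher and 4 lower. Cyr61 (chr3:145646976-145649981, minus strand), a matricellular protein, had UMIs in 53 of 57 cells, with a lowest level of 0, a median of 1453 and a highest of 6839 CPM. It stood at 2029 CPM (1839 to 2232) in AT1 against 42.8 CPM in AT2 cells, a 47.4-fold difference (39.3 to 57.5). Ctgf, a matricellular relative of Cyr61, had 453 against 2.0 CPM in 28 of 57 cells. Ankrd1 (chr19:36111961-36120099, minus strand), a stretch-responsive ankyrin repeat protein, was present in 24 of 57 cells, so its median was 0, and reached 2320 CPM. Its class level was 328 CPM in AT1 against 2.57 CPM in AT2 cells (128-fold, 63.4 to 291), with 0 UMIs in Car4 capillary cells. Nt5e, Ajuba and F3 were also called higher, while Axl, Foxf2, Dock5 and Nuak2 had 0 UMIs in AT1 cells. The pathway's own genes differed less, with 5 of 15 called higher than in AT2 cells, a median log2 ratio of 0.91 that turned to -0.07 after scaling, and Wwtr1, which encodes TAZ, at 53 against 20.3 CPM.

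The promoters of Ankrd1 and Cyr61 are shown because both genes stood high in AT1 cells and both hold the core motif of TEAD factors, the DNA-binding partners of YAP and TAZ. They are RefSeq promoters of GRCm38.p6, 250 bases before to 50 after the start, chr19:36119795-36120094 and chr3:145649936-145650235, both minus strand, read 5′ to 3′. Capitals mark the letters GGAATG or, on the opposite strand, CATTCC.
Ankrd1: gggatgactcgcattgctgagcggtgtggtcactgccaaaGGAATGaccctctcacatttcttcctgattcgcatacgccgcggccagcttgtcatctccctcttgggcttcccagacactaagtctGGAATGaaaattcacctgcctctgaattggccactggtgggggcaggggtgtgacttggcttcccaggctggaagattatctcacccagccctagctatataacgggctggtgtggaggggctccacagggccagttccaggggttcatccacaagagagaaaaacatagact
Cyr61: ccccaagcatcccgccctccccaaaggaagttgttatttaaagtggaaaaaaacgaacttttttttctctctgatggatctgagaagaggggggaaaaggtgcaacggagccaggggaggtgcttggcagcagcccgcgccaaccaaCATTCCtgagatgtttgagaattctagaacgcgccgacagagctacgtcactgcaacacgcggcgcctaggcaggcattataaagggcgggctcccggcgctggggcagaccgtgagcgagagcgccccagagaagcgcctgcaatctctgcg
The Ankrd1 promoter held GGAATG at 210 and at 123 bases before the RefSeq start, and the Cyr61 promoter, which RefSeq lists under Ccn1, held CATTCC at 103 bases before it. The Ankrd1 gene span given above is that of GENCODE. It reaches upstream past this promoter, so both Ankrd1 matches lie inside that span. Of the 17 YAP and TAZ targets with a promoter in the table, 8 held the motif on either strand (47.1%), namely Ccn1, Ankrd1, Amotl2, Axl, Ajuba, Lats2, Crim1 and Ptpn14. Among 32851 promoters 14.7% held it, or 16.6% when counted by gene, as the lists are. It was held by 4 of 27 AT1 genes outside the rule (14.8%), namely Cyp2b10, Pmp22, Ahnak and Lamb3, and by 0 of 5 of the marker genes. A match is a description of these letters and not a measured binding site, and Axl held the motif with 0 UMIs in AT1 cells.

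Most cytoskeletal genes, which shape the flat cell, were called higher before scaling. Of 38 measured of 39, 25 were called higher and 2 lower than in AT2 cells, beside 26.5% and 4.09% of all genes. Their median log2 ratio was 1.68, beside 0.85 for all genes, and trimmed-mean scaling lowered every log2 ratio by 0.98. The summed level was 28902 against 8769 CPM. Limch1, an activator of non-muscle myosin, had 626 against 9.70 CPM, Msn, which links actin to the membrane, 1022 against 74.2 CPM, and Ahnak, a giant scaffold protein, 785 against 75.9 CPM. Anxa1 and Anxa5, annexins that bind membrane phospholipid, had 1123 against 72.7 CPM and 1609 against 228 CPM.

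Transcription factors of the lung epithelium went both ways between AT1 and AT2 cells. Of 31 measured of 39, 11 were called higher and 6 lower than in AT2 cells, and the median log2 ratio of 0.65 turned to -0.33 after scaling. Nkx2-1, the factor that marks lung epithelium, had UMIs in 48 of 57 AT1 cells and 607 against 214 CPM in AT2 cells (2.84-fold, 2.33 to 3.44). Gata6, Foxa1 and Foxa2, factors of endoderm, were 3.38-fold, 3.17-fold and 3.01-fold higher, and Id3, an inhibitor of basic helix-loop-helix factors, 13.3-fold. After scaling, the ratios were 1.44 for Nkx2-1, 1.71 for Gata6, 1.6 for Foxa1 and 1.52 for Foxa2, none of them called, and 6.76 for Id3, which was still called. The 6 lower ones were Cebpa at 4.82 against 225 CPM, Etv5 at 9.64 against 314 CPM, Elf5 at 14.5 against 86.4 CPM, Id2 at 106 against 369 CPM, Irx1 at 116 against 250 CPM and Ehf at 0 against 29.1 CPM. Cebpa and Etv5 are known in the mouse for keeping AT2 identity.

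Genes of surfactant and its lipids were low. All 28 were measured, 27 were called lower and 0 higher than in AT2 cells, with a median log2 ratio of -5.39 and a summed level of 4934 against 356940 CPM. Sftpc, surfactant protein C, had 2578 CPM in AT1 against 240600 CPM in AT2 cells, 93.3-fold lower. The 10 AT2 markers together had 3513 CPM in AT1 cells, 2616 CPM in Car4 capillary cells and 2091 CPM in mesenchymal cells, which do not make surfactant. The part of free RNA in the AT1 level was not tested. Of the 25 most clearly higher genes by the ranking laid down for all members, 22 were called higher here as well; Cldn5 and Ramp2, endothelial genes, were not called at 1.70-fold and 1.33-fold, and S100a4 was under the minimum of UMIs. One cell held 96.0% of the Lgals1, 77.7% of the Vim and 98.6% of the S100a4 UMIs of all 84 Cherry_Negative members. All 15 most clearly lower genes were called lower both ways, among them Lyz2 at 202 against 24434 CPM, the chemokine Cxcl15, 74.2-fold lower, and Sftpd, 70.5-fold lower; Lyz1 and Lyz2 are near-identical copies whose split is uncertain.

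**Figure D3:**
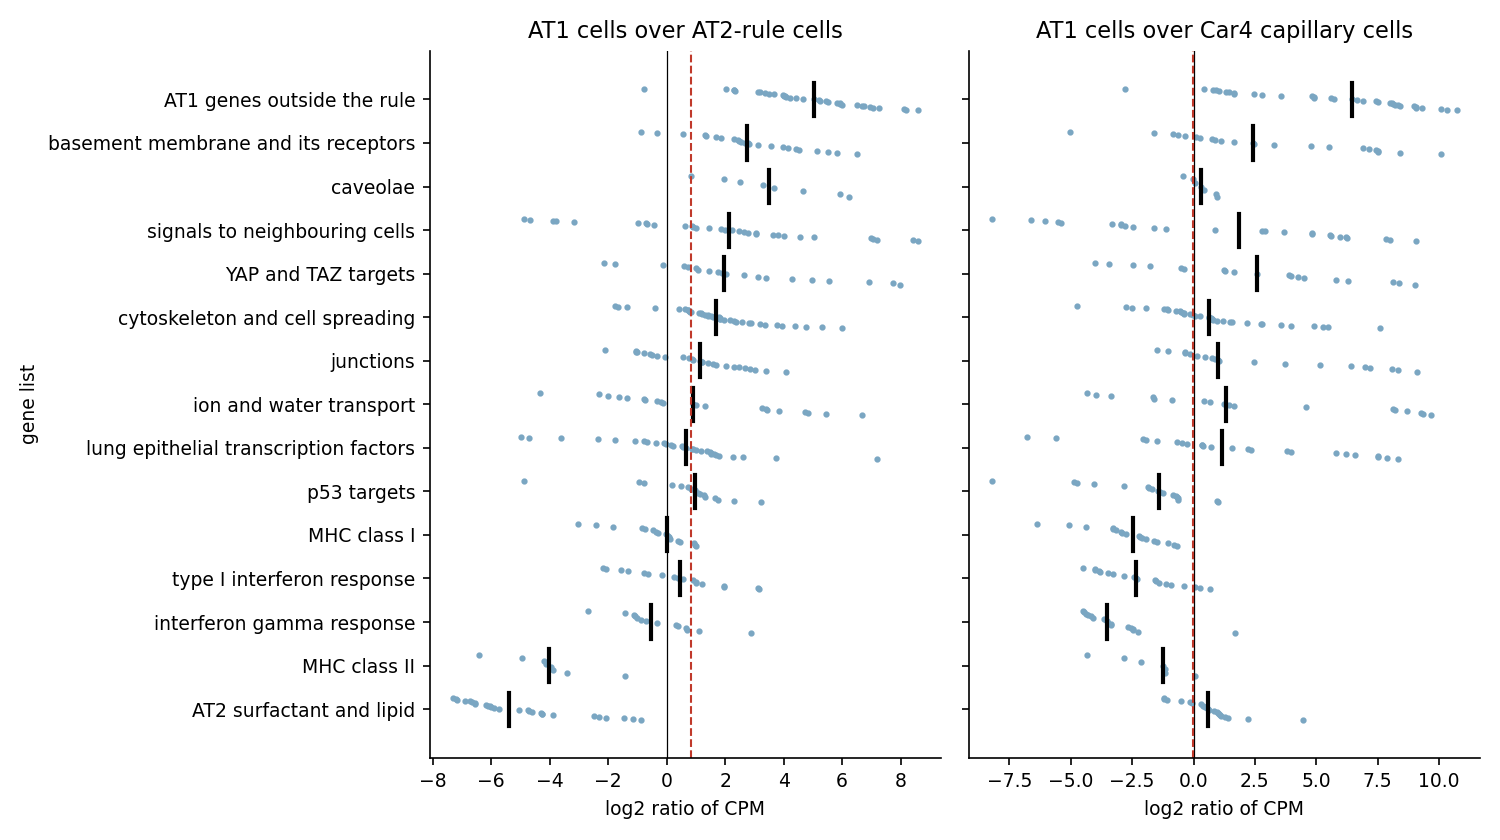
Log2 ratio of each measured gene of each list in Cherry_Negative AT1 cells over AT2-rule cells (left) and over Car4 capillary cells (right), with a black bar at the list median and a red dashed line at the median of all genes, 0.85 and -0.03. AT1 genes outside the rule, basement membrane and YAP and TAZ targets lie to the right in both, whereas MHC class I and interferon genes lie to the left over Car4 capillary cells; scaling would shift the left points by 0.98 and the right points by 0.13, and turns the medians of ion transport, transcription factor, MHC class I and type I interferon genes on the left to negative values.

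MHC class I and interferon response genes were few among those called against AT2 cells, and most were lower than in capillary cells, while MHC class II genes were lower than in AT2 cells. Of 18 measured MHC class I genes 0 were called higher and 2 lower than in AT2 cells, with a median log2 ratio of 0.02 that was -0.97 after scaling; without the 5 cells with markers of another type 1 was called higher and 2 lower. Over Car4 capillary cells 0 were called higher and 15 of 18 lower, with a median log2 ratio of -2.48 and a summed level of 4024 CPM in AT1 against 22296 CPM. B2m (chr2:122147686-122153083, plus strand), the light chain shared by all class I molecules, had UMIs in 51 of 57 AT1 cells, with a lowest level of 0, a median of 673 and a highest of 4818 CPM. It stood at 944 CPM (817 to 1086) in AT1, against 686 CPM in AT2 and 7125 CPM in Car4 capillary cells, a ratio of 0.133 (0.114 to 0.153) over the capillary cells. H2-D1, a class I heavy chain, had 1706 CPM in AT1, 1568 CPM in AT2 and 7888 CPM in Car4 capillary cells. MHC class II genes were lower than in AT2 cells in 7 of 8 measured, with the invariant chain Cd74 at 492 against 7565 CPM.

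Interferon gamma response genes were called lower than in Car4 capillary cells in 16 of 18 measured and higher in 1, with a median log2 ratio of -3.51. Against AT2 cells 1 of 14 was higher and 1 lower, with a median of -0.53, or -0.02 with genes at 0 set to their bound. Among 20 type I interferon response genes 14 were lower and 0 higher than in Car4 capillary cells. Ifitm3, a membrane protein that blocks virus entry, had 222 CPM in AT1 against 3600 CPM in Car4 capillary cells. The exception was Icam1 (chr9:21015985-21028817, plus strand), the leukocyte adhesion molecule long known on AT1 cells. It had UMIs in 55 of 57 cells, with a median of 1613 and a highest level of 5339 CPM, and stood at 1884 CPM (1702 to 2080) in AT1, against 255 CPM in AT2 and 582 CPM in Car4 capillary cells. The direction over AT2 cells changed with the choice of cells. With all 84 Cherry_Negative members and the narrower AT2 class, 11 of 16 MHC class I and 11 of 11 interferon gamma genes were called higher than in AT2 cells. The 27 members with fewer than 4 markers had 11455 CPM of MHC class I genes, against 4024 CPM in the 57 AT1 cells, and 2304 CPM of the endothelial claudin Cldn5.

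Damage and transition genes were mixed. Of 19 measured genes of the injury-related transitional epithelium, 11 were called higher and 3 lower than in AT2 cells, among the higher Krt19 at 1441 against 76.4 CPM and Lgals3 at 800 against 79.3 CPM, both also AT1-enriched in normal mouse lung. Cldn4, a claudin of the transitional state, had 0 UMIs. Of 17 measured p53 targets 7 were called higher and 1 lower than in AT2 cells, and 0 higher and 10 of 18 lower than in Car4 capillary cells. Of all genes 26.5% were called higher than in AT2 cells, with a median log2 ratio of 0.85, and scaling lowered every log2 ratio by 0.98. Without the 5 cells rich in markers of another type, the median of the p53 targets was 0.85; the median of all genes for that smaller set is not given here. In it 8 of 17 p53 targets were called higher and 2 lower, beside 2523 higher and 422 lower of 9991 genes. Whether these targets rose over AT2 cells beyond all genes was not tested, and no such rise is claimed. Cdkn1a, the cell cycle inhibitor p21, had 1099 CPM in AT1, 455 CPM in AT2 and 3517 CPM in Car4 capillary cells. Cell cycle genes of the G2 and M phases reached 3 UMIs in all 57 cells.

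Between the libraries, the 3 Cherry_Positive AT1 cells held a summed level of AT1 genes near that of the 57 Cherry_Negative ones, but some single AT1 genes were lower. Of 35 AT1 genes outside the rule 0 were called higher and 4 lower, with a median log2 ratio of -0.03 beside 0.19 for all 3589 genes measured, and the summed level was 45558 CPM in Cherry_Positive against 40838 CPM in Cherry_Negative cells. The per-cell sums were 41925, 48574 and 47066 CPM in Cherry_Positive cells, inside the range of 5987 to 58339 CPM with a median of 43747 CPM in Cherry_Negative cells. Over all genes 51 (1.42%) were called higher and 34 (0.947%) lower, which trimmed-mean scaling changed to 5 (0.139%) and 145 (4.04%). Scaling lowered every log2 ratio by 0.55, those of the AT1 genes included. With all 7 and 84 members the counts were 110 of 5158 (2.13%) higher and 61 (1.18%) lower, and 34 (0.659%) and 180 (3.49%) after scaling. The split by direction thus followed the scaling. Counts that rest on 3 cells cannot resolve weakly expressed genes, since 3 UMIs in them equal 170 CPM.

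Among the genes ranked highest in Cherry_Positive over all members, 3 of 10 were also called in the 3 cells with 4 or more markers, namely Rgcc, Krt19 and Fam53b. Those 3 cells are among the members that gave the ranks, so this is no independent check. They held all 33 Rgcc UMIs and 52 of the 59 Krt19 UMIs of the Cherry_Positive members. Rgcc (chr14:79288756-79301645, minus strand), a regulator of the cell cycle, had 2305, 1160 and 2149 CPM in the Cherry_Positive cells, against a median of 598 and a highest level of 2367 CPM in Cherry_Negative cells, a ratio of 2.63 (1.74 to 3.85). Krt19 (chr11:100140810-100148665, minus strand), an epithelial keratin, had 2449, 4808 and 1289 CPM, against a lowest level of 0, a median of 1234 and a highest of 5325 CPM, a ratio of 2.05 (1.49 to 2.76). Without the 5 Cherry_Negative cells with markers of another type the ratios were 2.37 for Rgcc and 1.86 for Krt19, which is then not called. In both genes all 3 Cherry_Positive cells lay above the Cherry_Negative median and inside the Cherry_Negative range. Fam53b rests on 5 UMIs against 15 and overlaps Fgfr2 on the same strand, so its reads are uncertain. Actb, cytoplasmic actin, was also called at 2.14-fold (1.86 to 2.46), but its 3 values of 8500, 28515 and 2364 CPM lay on both sides of the Cherry_Negative median of 4040 CPM. Scaling ended all 4 of these calls, with ratios of 1.79 for Rgcc, 1.40 for Krt19, 2.68 (0.761 to 7.74) for Fam53b and 1.46 for Actb. The other 7 of the 10, among them Klf9, Abhd2 and Btg2, were not called higher in the 3 cells. Prdx6, a peroxiredoxin, was short of the 2-fold limit at 1.58-fold (1.31 to 1.91), with 7780, 6963 and 6447 CPM in the Cherry_Positive cells, against a median of 3828 and a highest level of 9439 CPM in Cherry_Negative cells. YAP and TAZ targets summed to 5900 CPM in Cherry_Positive against 4308 CPM in Cherry_Negative cells, a ratio of 1.37 (1.11 to 1.68) with 0 of 13 genes called and a median log2 ratio of 0.28 that turned to -0.27 after scaling. Cyr61 had 4754, 3481 and 1289 CPM in the 3 cells.

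**Figure D4:**
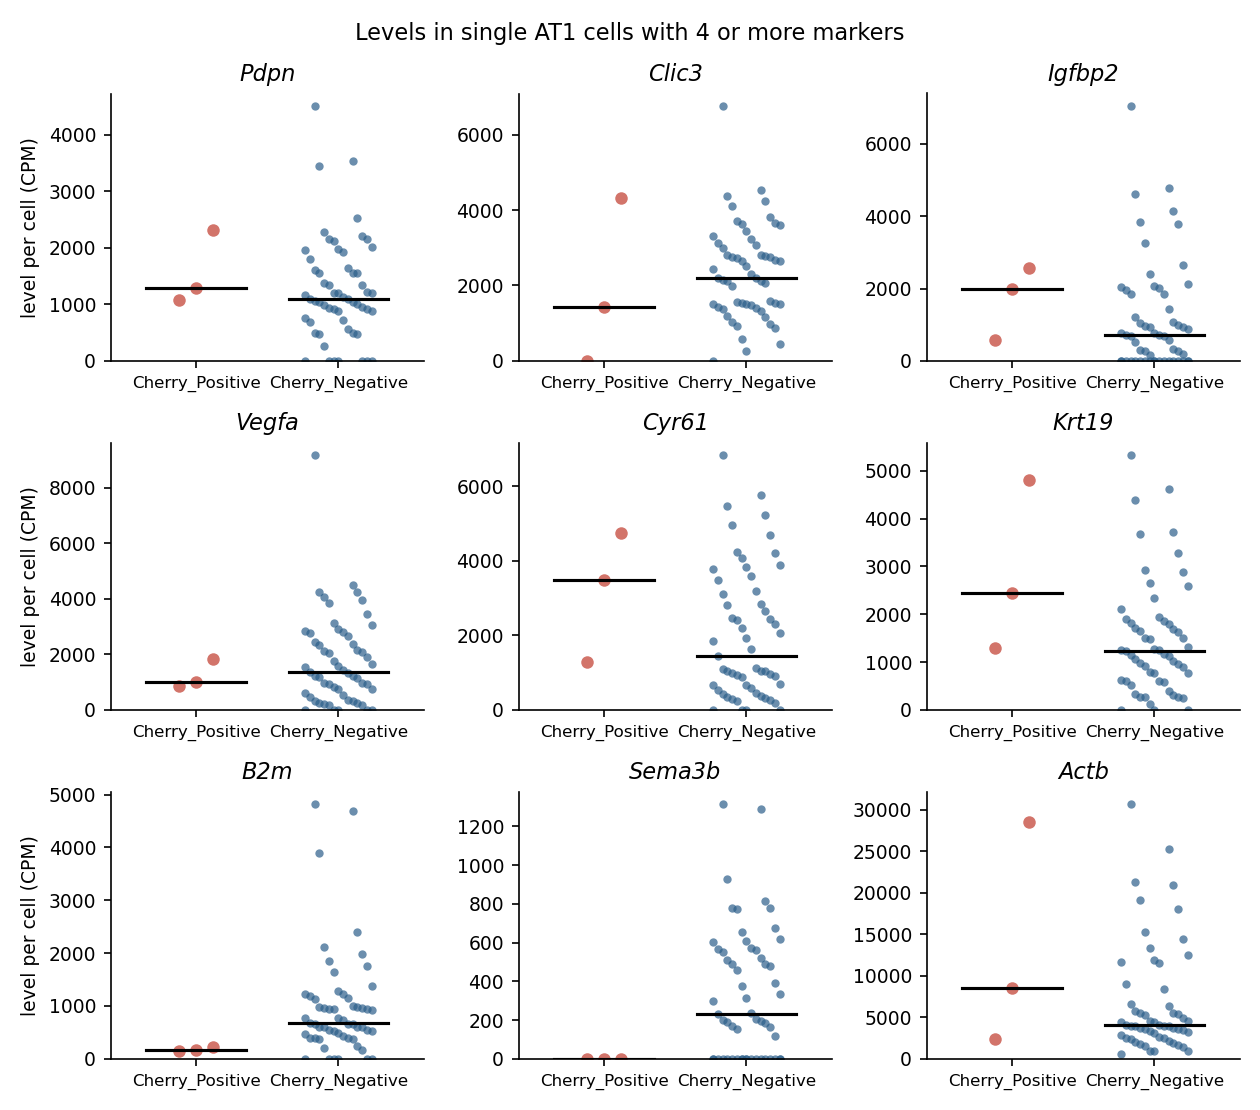
CPM of single genes in each AT1 cell, the 3 Cherry_Positive cells left and the 57 Cherry_Negative cells right of each panel, with a bar at the median. The 3 Cherry_Positive values of Pdpn, Igfbp2 and Vegfa lie inside the Cherry_Negative range, the 3 Cherry_Positive cells hold 1289 CPM or more of Krt19, and their B2m values of 144 to 215 CPM lie low.

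The genes lower in Cherry_Positive AT1 cells, 34 of 3589 (0.947%), included a ligand, B2m and some single matrix and junction genes. The matrix and junction lists did not move as groups. Without the 5 Cherry_Negative cells with markers of another type, 1 of 16 junction genes was called lower and 0 higher, with a median log2 ratio of -0.18. For basement membrane genes it was 2 of 19 lower and 0 higher, with a median of 0.03. Of the 10 ranked lowest over all members, 5 were also called lower in the 3 cells, which are part of those members. These were Sema3b, B2m, Lrrfip1, Dusp1 and Gm26870. Cldn18, Timp3 and Tinagl1, given below, were not among these 10. Sema3b (chr9:107597674-107609229, minus strand) had 0 UMIs in all 3 Cherry_Positive cells, against a median of 230 and a highest level of 1314 CPM with UMIs in 38 of 57 Cherry_Negative cells, and the upper bound of the ratio was 0.647. Cldn18 had 576, 829 and 1504 CPM in Cherry_Positive cells, against a median of 1684 CPM in Cherry_Negative cells (ratio 0.483, 0.273 to 0.794). Timp3 had 397 against 1026 CPM, and Tinagl1, a basement membrane glycoprotein, 0 UMIs against 328 CPM. Akap5, which the rule used, had 0, 166 and 215 CPM. Dusp1, an immediate early phosphatase that tissue dissociation also induces, had 144, 332 and 430 CPM in Cherry_Positive cells, against a median of 659 CPM in Cherry_Negative cells. Immediate early genes together had 5787 CPM in Cherry_Positive against 8799 CPM in Cherry_Negative cells, with 1 of 17 called higher and 2 lower. Vegfa was not called, with 1008, 1824 and 860 CPM in Cherry_Positive cells and a ratio of 0.815 (0.503 to 1.26).

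B2m had 1 UMI in each of the 3 Cherry_Positive AT1 cells, 144, 166 and 215 CPM, against a median of 673 CPM in Cherry_Negative cells. The class levels were 170 CPM against 944 CPM, a ratio of 0.180 (0.0368 to 0.534), and over all members the ratio was 0.429 (0.267 to 0.656). In the neighbouring classes B2m was higher in Cherry_Positive, with ratios of 1.13 (1.07 to 1.20) in Car4 capillary, 1.15 (1.11 to 1.19) in all endothelial and 2.01 (1.95 to 2.07) in mesenchymal cells, and 1.09 (0.894 to 1.33) in AT2 cells. The difference between classes was not tested. B2m was the 1 of 10 measured class I genes that was called, and the heavy chains H2-D1 and H2-K1 had ratios of 1.06 (0.717 to 1.53) and 1.07 (0.379 to 2.46). Icam1 had 2449, 1824 and 1289 CPM in Cherry_Positive cells and a ratio of 1.02 (0.699 to 1.46). Cxcl10, a chemokine of the interferon response, had 1 UMI in the AT1 cells of each library. Markers of other cells were compared between the libraries as well. AT2 markers had 511 CPM with 6 of 10 at 0 in Cherry_Positive AT1 cells, against 3513 CPM with 0 of 10 at 0 in Cherry_Negative AT1 cells, and 204 against 2616 CPM in Car4 capillary cells. Without the 5 Cherry_Negative cells with markers of another type the AT2 marker level was 511 against 2233 CPM. Club markers had 284 against 3715 CPM, but 1 Cherry_Negative cell held 698 of the 771 UMIs, and the per-cell values of 432, 332 and 0 CPM in Cherry_Positive stood beside a Cherry_Negative median of 305 CPM. Endothelial markers had 113 against 304 CPM, or 113 against 168 CPM without the 5 cells. Leukocyte markers had 0 against 29 CPM, and the median over the Cherry_Negative cells was 0 for both lists. Both rest on few UMIs and are not shown to differ. Mesenchymal markers had 340 against 554 CPM, or 340 against 101 CPM without the 5 cells, and the 3 Cherry_Positive cells had 144, 497 and 430 CPM against a Cherry_Negative median of 0. Ciliated markers had 851 against 1267 CPM. The part of these markers in the lower genes, including Cd74 with 0 UMIs against 492 CPM, was not tested. Without the 5 cells the B2m ratio was 0.200 (0.0407 to 0.594), and Cd74 had 0 UMIs against 342 CPM.

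**Figure D5:**
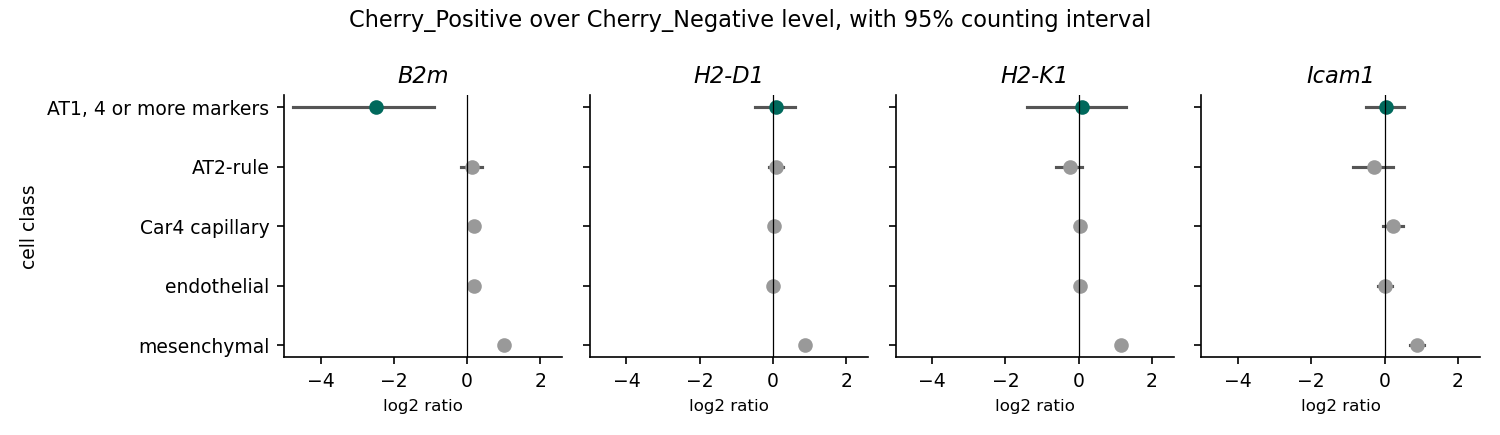
Log2 ratio of Cherry_Positive over Cherry_Negative for B2m, H2-D1, H2-K1 and Icam1 in AT1 cells and 4 other classes, with 95% counting intervals. B2m lies below 0 in AT1 cells, at a ratio of 0.180, and above 0 in the Car4 capillary, endothelial and mesenchymal classes, while the AT1 intervals of the other genes include 0.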

How the data were processed

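The authors deposited raw counts, UMIs per gene and barcode, as 1 sparse matrix per library with 27998 gene IDs, per the file headers. R 4.0.3, Seurat 4.0.2, Cell Ranger 2.1.1 and the build mm10 are named in the submitters' processing notes; the labels name Chromium 3ʹ kits and a HiSeq4000. Other settings are not given in the sources. Here the tools were scanpy 1.11.5, pandas 2.3.3, scipy 1.17.1 and numpy 2.4.6 in Python 3.11.15, with matplotlib 3.10.9 for figures. Kept barcodes had at least 500 genes and at most 10% mitochondrial UMIs, which dropped 56 in Cherry_Positive and 50 in Cherry_Negative. Scrublet, at an expected rate of 2%, called 4 (0.226%) and 7 (0.249%) kept barcodes, too few for a working caller, so doublets were not removed. Raw UMIs were summed per class and library and divided by the class total. Sums carry Poisson intervals, shares Clopper-Pearson intervals and ratios an interval from the binomial share of the UMIs, all at 95%. List log2 ratios add 0.5 to each count. Genes with 0 UMIs were set against 3 counts. The ratio script was tested on simulated data.

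Genes were named from ranks of the ratio bound nearest 1: 25 higher and 15 lower over AT2 (at least 30 UMIs and 50 CPM), and 10 each way between libraries (at least 20 UMIs, at most 50% in 1 cell), without mitochondrial, ribosomal and haemoglobin genes; list members were also named for their role. The members and lists were chosen with earlier results of these data known. The limit of 4 markers, the wider AT2 class and the run without 5 cells rich in markers of another type were chosen after seeing the data. Positions came from GENCODE M21 and promoters from RefSeq. Alternatives changed the filters, limits, scaling, free RNA, weighting and single cells.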

Additional observations from a re-analysis of the deposited data

Results flagged for a closer look

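B2m was marked because its Cherry_Positive over Cherry_Negative ratio ran opposite ways in different classes. In the AT1 cells with 4 or more markers the ratio was 0.180 (170 against 944 CPM, 3 against 196 UMIs), while it was 1.13 in Car4 capillary cells, 1.15 in endothelial cells and 2.01 in mesenchymal cells. In AT2 cells it was 1.09 with an interval of 0.894 to 1.33, which shows no direction. Over all members the B2m log2 ratio turned to 0.027 when the AT1 sum was set to at least 3. The difference between the classes was not tested, and there was 1 library per group.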

How the results depend on the processing

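Leaving out replicates was not possible with 1 library per group. No paired analysis was possible because each group has 1 library and no test was made. The Cherry_Negative AT1 share of 2.99% was 2.1% at an AT1 sum of at least 10, 4.20% at 3, 2.13% with an endothelial and mesenchymal sum of 0, 2.03% with 4 markers and 1.85% with 4 markers without the 5 cells with markers of another type. For all members over the narrower AT2 class, the 1728 higher and 268 lower genes became 836 and 485 under trimmed-mean scaling, 3306 and 418 with the wider AT2 class, 2666 and 411 with 4 markers as well, and 2523 and 422 also without the 5 cells. Between libraries, the 110 higher and 61 lower genes became 58 and 39 at an AT1 sum of 10, 264 and 390 at 3, 72 and 28 with an endothelial and mesenchymal sum of 0, 34 and 180 under scaling, 59 and 29 without the cell richest in the gene, 51 and 34 with 4 markers, and 45 and 31 also without the 5 cells; with genes of at least 1 UMI 181 were higher. The share of Cherry_Negative members with a UMI was 46.4% for Igfbp2 (33.3% thinned, 68.4% with 4 markers), 69% for Vegfa (48.8% and 91.2%) and 64.3% for Pdpn (44.0% and 87.7%). Of 87 other results 17 took the opposite sign under at least 1 alternative. In 6 the first value was called or, for a list median, had an interval off 0: between libraries at an AT1 sum of 3, B2m turned to a log2 ratio of 0.027 and Btg2 to -0.81; over the wider AT2 class the interferon gamma median turned to -0.53 with 4 markers and -0.83 without the 5 cells, where MHC class I (-0.079), Cldn5 (-0.41) and Ramp2 (-0.67) turned too. The other 11 were not called at first, or their list interval reached 0: the medians of transcription factor, inflammatory and immediate early genes over AT2 cells, and between libraries Cryab, Prdx6 and the medians of AT1, interferon gamma, cytoskeletal, oxidative phosphorylation, junction and basement membrane genes. The cause was not tested. The 3 Cherry_Positive cells hold 17626 UMIs, which limits the library comparison. Without the 5 cells other list counts over the wider AT2 class shifted too. Called higher were 19 of 24 basement membrane, 23 of 38 cytoskeletal and 15 of 32 signal genes. So were 10 of 31 transcription factors, 10 of 19 transitional genes, 4 of 15 YAP and TAZ pathway genes and 8 of 17 p53 targets. Called lower were 2 p53 targets, 5 of 21 ion transport and 28 of 28 surfactant genes. Over Car4 capillary cells 13 of 18 MHC class I and 9 of 26 signal genes were lower.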

Other observations

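Some genes outside the lists also stood higher in the 57 Cherry_Negative AT1 cells than in all other kept cells of that library, where 10.5% of 13261 genes were called higher; they were chosen after their values were seen. Tshb, the beta chain of thyrotropin, had UMIs in 21 AT1 cells at 130 CPM, against 0.62 CPM elsewhere (210-fold, 89.3 to 572). Tnn, tenascin N, had UMIs in 21 cells at 149 CPM, against 1.06 CPM. Csf1r, a receptor gene best known in myeloid cells, had UMIs in 20 cells at 116 CPM, against 1.33 CPM. The leukocyte genes Ptprc, Laptm5 and Tyrobp had 0 UMIs in the same cells, but other genes of the leukocyte list were detected. Over the 57 AT1 cells the whole list had a median of 0 and a highest level of 522 CPM. Il17re, a subunit of the receptor for interleukin 17C, had UMIs in 34 cells at 246 CPM in AT1, against 12 CPM in AT2 cells and 0 UMIs in Car4 capillary cells.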
